A study of Mus musculus with 27 samples.

Results

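Bidirectional promoters, in which a gene on the minus strand and a gene on the plus strand start within 1 region of histone H3 lysine 4 (H3K4) methylation, were examined in mouse hearts at embryonic day E11.5 after myocardial deletion of *Kmt2d*. The members were chosen by position and width from the authors' merged list of H3K4me1, H3K4me2 and H3K4me3 peaks. Each member is at least 1000 bp and under 8000 bp wide and holds annotated transcription start sites of at least 1 protein-coding gene on each strand. Of 358833 merged regions, 80022 had such a width, and 1146 of these were members (1.43% of the width window, 0.319% of the merged list). They held starts of 2305 protein-coding genes, a few of which, such as *Zfp319*, had starts in more than 1 member. The widths used by the rule come from the same ChIP-Seq libraries as the calls of lower methylation, so comparisons by width are descriptions. A further 11726 regions of the same widths held coding starts on 1 strand only, and 67150 held none.

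At a bidirectional promoter, divergent transcription units are read outwards from a shared stretch of open chromatin. Such promoters are usually CpG islands without a TATA box and often serve housekeeping genes, such as those of DNA repair and mitochondria. KMT2D is a methyltransferase that adds methyl groups to H3K4. H3K4me3 peaks at promoters, H3K4me2 flanks it on either side, and H3K4me1 is highest at enhancers and at the outer edges of promoters.

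The study compared pools of whole C57BL/6 hearts. Control hearts were *Tnnt2::Cre;Kmt2d fl/+;mTmG/+* and mutant hearts were *Tnnt2::Cre;Kmt2d fl/fl;mTmG/+*, so that both genotypes carried Cre, the mTmG reporter and at least 1 floxed *Kmt2d* allele. Cre was driven by the *Tnnt2* promoter, which is active in heart muscle cells, whereas whole hearts also hold other cells whose *Kmt2d* is not targeted. Each heart group, defined by genotype and antibody or input, had 3 libraries, each from a pool of 30 hearts. KMT2D ChIP-Exo libraries from cardiomyocytes derived from embryonic stem cells were not used here.

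Each deposited list holds only positions, and the merged list does not say which marks had a peak in a region. A region may thus lack the mark whose decrease is counted. A share of lower calls therefore depends on the presence of that mark as well as on its decrease. A member was read as having lower H3K4me2 or H3K4me1 in mutant hearts where an identical region stood in the authors' list of decreased regions for that mark. No value per replicate or read depth could be formed from positions, so the size of a decrease, the spread between pools and the tissue's marker genes could not be examined. No test was run. The 95% Wilson and Newcombe intervals given with shares and differences treat regions as independent draws and cover counting error only.

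To show what these promoters look like, the bases between the closest opposite-strand starts are printed for 11 head-to-head members in mouse assembly NCBIM37 (mm9), with no annotated exon in between. Each is read on the plus strand, from the base after the minus-strand gene's start to the base before the plus-strand gene's start. Capitals mark letters of the searched motifs on either strand: TATAAA (the TATA box), CCAAT (bound by NF-Y), GGGCGG (the SP1 box), CCGGAAGT or CCGGAAGC (ETS factors), GCGCATGCG (NRF1), AAGATGGCG (YY1) and TCTCGCGAG. The first 6 regions were in the decreased H3K4me2 list. They were chosen to show an ETS, an NRF1, a TCTCGCGAG and an SP1 box match and a stretch with no match.
*Chtf8*/*Cirh1a*, chr8:109417494-109417539: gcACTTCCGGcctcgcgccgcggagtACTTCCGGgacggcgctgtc
*Ppwd1*/*Cenpk*, chr13:105018925-105019034: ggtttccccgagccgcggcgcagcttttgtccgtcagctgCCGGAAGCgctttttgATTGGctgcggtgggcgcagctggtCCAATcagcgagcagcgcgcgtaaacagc
*Cntrob*/*Trappc1*, chr11:69137376-69137481: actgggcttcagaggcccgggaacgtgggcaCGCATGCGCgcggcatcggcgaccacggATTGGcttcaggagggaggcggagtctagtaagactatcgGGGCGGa
*Stxbp4*/*Cox11*, chr11:90499399-90499486: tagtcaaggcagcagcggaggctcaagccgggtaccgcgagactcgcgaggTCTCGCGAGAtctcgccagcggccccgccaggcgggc
*Slc35a5*/*Atg3*, chr16:45158820-45158897: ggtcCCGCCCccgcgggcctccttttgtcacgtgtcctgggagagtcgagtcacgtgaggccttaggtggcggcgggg
*Sdhd*/*Timm8b*, chr9:50411955-50412005: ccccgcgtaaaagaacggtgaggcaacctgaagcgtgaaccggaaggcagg
The next 4 were in neither list, and show that CCAAT, the SP1 box and TCTCGCGAG also stood between starts that were not called lower.
*Smc1b*/*Ribc2*, chr15:84962388-84962528: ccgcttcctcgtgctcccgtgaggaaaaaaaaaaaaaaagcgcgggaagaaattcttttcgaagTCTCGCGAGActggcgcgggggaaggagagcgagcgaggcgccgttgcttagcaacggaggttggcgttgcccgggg
*Mrps12*/*Sars2*, chr7:29526840-29527009: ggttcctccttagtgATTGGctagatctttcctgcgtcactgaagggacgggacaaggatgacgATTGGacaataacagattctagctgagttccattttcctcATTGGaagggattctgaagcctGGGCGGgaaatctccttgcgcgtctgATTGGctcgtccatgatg
*Rpa1*/*Smyd4*, chr11:75161827-75161934: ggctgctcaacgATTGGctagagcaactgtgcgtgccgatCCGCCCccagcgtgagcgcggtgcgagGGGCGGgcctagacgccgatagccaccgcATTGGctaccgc
*Sirt3*/*Psmd13*, chr7:148067769-148067866: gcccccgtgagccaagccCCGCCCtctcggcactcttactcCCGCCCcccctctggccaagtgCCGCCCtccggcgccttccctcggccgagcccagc
The last was the member in both decreased lists, and it had few CpG dinucleotides.
*Gm10097*/*Syne1*, chr10:5277349-5277477: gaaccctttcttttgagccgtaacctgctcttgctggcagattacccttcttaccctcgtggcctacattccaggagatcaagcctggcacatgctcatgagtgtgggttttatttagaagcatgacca

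The label of divergent promoters held for most members. The closest opposite-strand starts were head to head, with the minus-strand start at the lower coordinate, in 914 of 1146 members (79.8%, 77.3 to 82.0). In the other 232 (20.2%) the starts faced each other and the transcription units overlapped at their 5′ ends, so that the label does not hold for them. The share depended on the annotation, and was 65.6% when each gene was represented by its outermost 5′ end. Head-to-head starts lay a median of 137.5 bp apart (quartiles 69 and 314 bp, range 1 to 4249 bp), and 674 pairs lay within 300 bp. Overlaps had a median of 305.5 bp. Of the members, 1117 held 2 coding genes, 29 held 3 and 0 held 4 or more. A numbered gene model or RIKEN clone stood in the closest pair of 340 members.

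**Figure D1:**
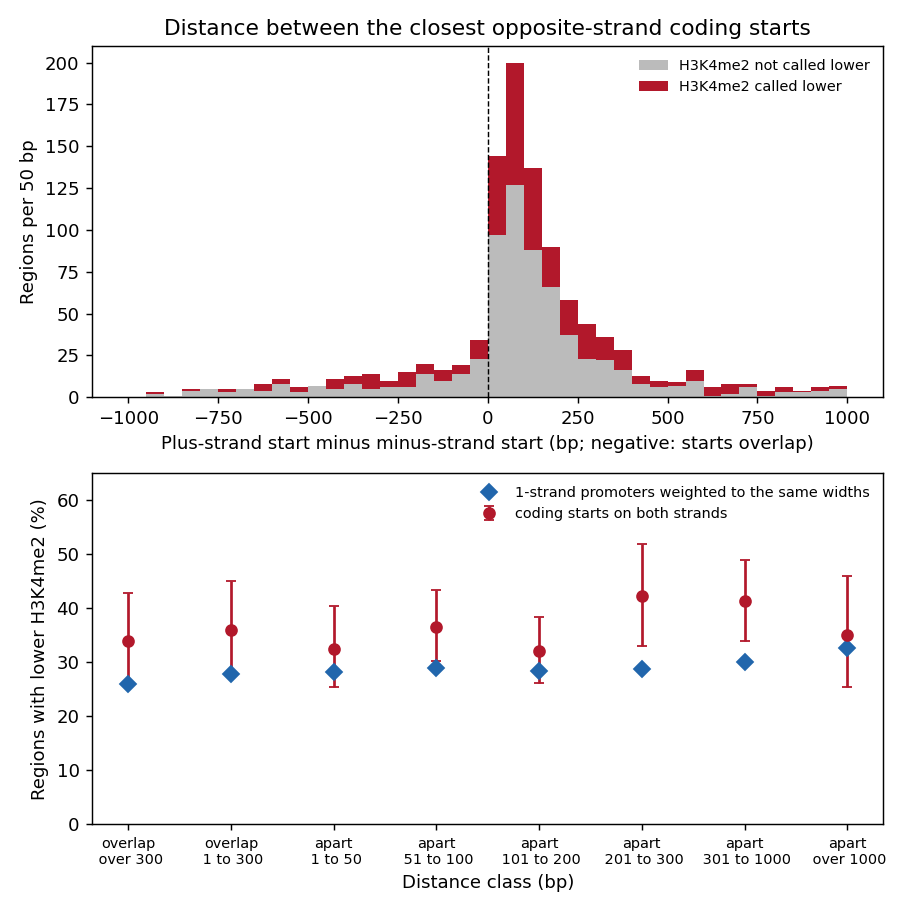
Top, number of members per 50 bp of signed distance between their closest opposite-strand coding starts, with members called lower in H3K4me2 stacked in red on the others in grey; 104 members beyond 1000 bp on either side are not drawn. Bottom, share of members with lower H3K4me2 in each distance class with 95% Wilson intervals (red), beside promoters with coding starts on 1 strand weighted to the same widths (blue). Most pairs lie just right of 0, and the shares run from 32.0% to 42.2% with overlapping intervals.

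H3K4me2 was lower in mutant hearts at 411 of the 1146 members (35.9%, 33.1 to 38.7), which held starts of 832 coding genes. Over the whole merged list, 1.87% of regions were in the decreased H3K4me2 list, and 5.32% of all regions from 1000 to under 8000 bp were. Regions of this width with coding starts on 1 strand reached 24.0% (2820 of 11726), and those with no coding start 1.52% (1024 of 67150). Members thus exceeded 1-strand promoters by 11.8 percentage points (Newcombe interval 8.98 to 14.7).

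Members were wider than 1-strand promoters, with a median of 4280 bp against 3200 bp, and the share rose with width in both. Among members it was 7.81% from 1000 to under 2000 bp, 28.0% from 2000 to under 3000 bp and 44.2% from 7000 to under 8000 bp. For 1-strand promoters the corresponding values were 9.01%, 21.8% and 36.0%. In the narrowest class the members did not stand above the 1-strand promoters, and in each of the 6 wider classes they did. The intervals of the 2 kinds of promoter overlapped within every class. No interval was formed for the difference within a class, so the overlap does not show equal shares. When 1-strand promoters were weighted to the members' widths in classes of 500 bp, their share was 28.7% and the difference fell to 7.14 points.

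**Figure D2:**
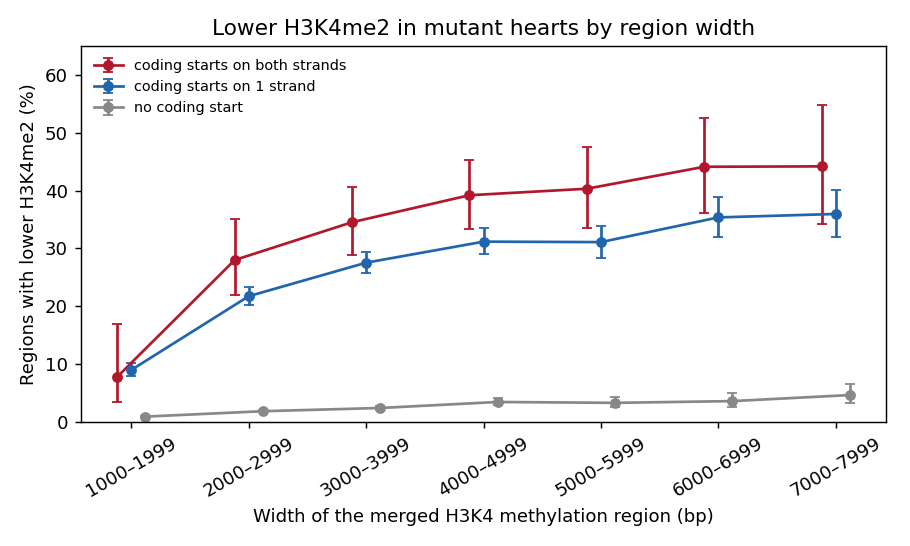
Share of regions called lower in H3K4me2 (vertical axis, percent) by width of the merged region (horizontal axis, bp), with 95% Wilson intervals, for regions with coding starts on both strands (red), on 1 strand (blue) and with no coding start (grey). Red lies above blue in every class except the narrowest, and grey stays at or below 4.67%.

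CpG content moved with the calls too. The ratio of observed to expected CpG, taken over 250 bases before to 50 bases after each start, had a median of 0.831 at members' starts, 0.711 at 1-strand promoters and 0.534 at the 5′ ends of all annotated coding genes. Median GC content was 62.7%, 60.7% and 55.0%. Among members with a mean ratio up to 0.4, 7 of 46 were lower in H3K4me2 (15.2%, 7.57 to 28.2), against 81 of 173 with a ratio over 1 (46.8%, 39.5 to 54.2). The largest gap to 1-strand promoters was in the class over 0.6 and up to 0.8, at 37.0% against 24.6%. At ratios over 0.8 and up to 1 the values were 37.4% and 34.9%, with overlapping intervals. With 1-strand promoters weighted to the members' widths and CpG classes together, 3.19 points of the difference remained. That weighting was chosen after seeing the data.

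**Figure D3:**
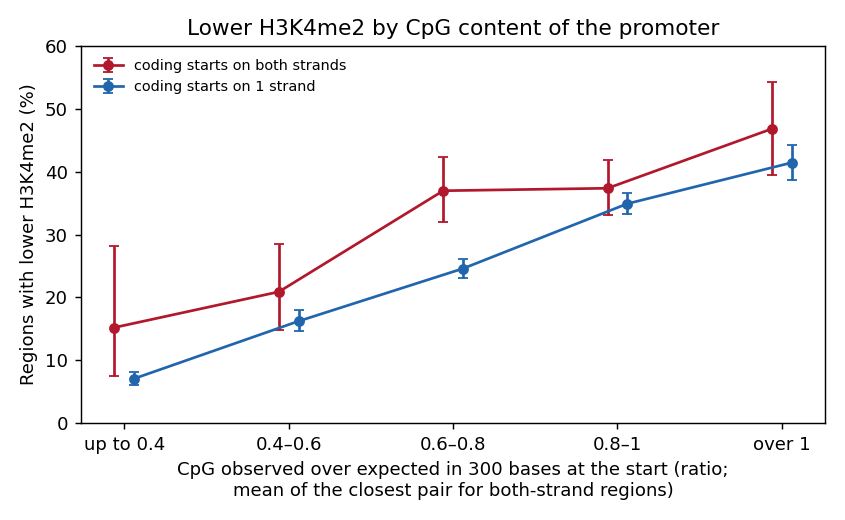
Share of regions called lower in H3K4me2 (vertical axis, percent) by ratio of observed to expected CpG at the start (horizontal axis, 5 classes), with 95% Wilson intervals, for members (red, mean ratio of the closest pair) and 1-strand promoters (blue). Both rise from left to right, from 15.2% to 46.8% for members and from 7.09% to 41.4% for 1-strand promoters.

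The H3K4me2 calls were next set against the arrangement of the starts. The share was 36.1% (330 of 914) for head-to-head members and 34.9% (81 of 232) for overlapping ones. Among head-to-head members it was 32.4% at 1 to 50 bp, 42.2% at over 200 and up to 300 bp and 35.0% at over 1000 bp, and the intervals of these classes overlapped. Members with 3 coding genes were lower in 13 of 29 cases (44.8%, 28.4 to 62.5), against 35.6% of those with 2. Where neither gene of the closest pair was a numbered gene model or RIKEN clone, 305 of 806 were lower (37.8%, 34.6 to 41.2). The rest were lower in 106 of 340 cases (31.2%, 26.5 to 36.3). The intervals of these last values overlapped. Genes whose symbol is a sequence accession, such as *BC003331*, stayed among the 806.

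The methylated region spread from a head-to-head pair into both genes. It reached a median of 1955 bp into the minus-strand side and 1973.5 bp into the plus-strand side. These were close to the 1918.5 bp that 1-strand promoters reached downstream of a start and well past their 1087 bp upstream. For 1-strand promoters the start nearest the region's middle was used, which is a different anchor from the closest pair and shapes both values. Within a pair the sides were unequal, with a median of 1477.5 bp on the shorter and 2510.5 bp on the longer. The share with lower H3K4me2 was 26.6% (21.2 to 32.9) where the shorter side was under 1000 bp and 40.9% (34.7 to 47.3) where it was 2000 bp or more. The 1-strand promoters weighted to the widths of these same members gave 23.4% and 33.3%.

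On 18 of the 20 chromosomes with at least 20 members, the members' share of lower H3K4me2 lay above that of 1-strand promoters. The exceptions were chromosome 17 (19.7%, 11.9 to 30.8, against 25.4%) and chromosome 19 (20.5%, 10.8 to 35.5, against 21.8%). The highest share was 53.1% on chromosome 16 (17 of 32, 36.4 to 69.1). Several of the 18 had a members' interval that held the 1-strand share. The shares by chromosome were not weighted to width or CpG content. Another region with lower H3K4me2 lay within 10 kb of 11.9% of the members called lower and of 11.2% of the others, with overlapping intervals. For all members the share was 11.4% (9.72 to 13.4), beside 9.40% (8.88 to 9.94) for 1-strand promoters.

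H3K4me1 was rarely called lower at members, although how many of them had an H3K4me1 peak is not known. Only 2 of 1146 (0.175%, 0.0479 to 0.634) stood in the decreased H3K4me1 list, which held 0.761% of all merged regions and 1.91% of those from 1000 to under 8000 bp. The share was 0.819% at 1-strand promoters (96 of 11726), a difference of -0.644 points (-0.864 to -0.161), and 2.14% at regions with no coding start. Low shares were not particular to members. At 1-strand promoters with a non-coding start on the other strand the share was 0.229% (2 of 872). Members differed from these by -0.0548 points (-0.671 to 0.434). The first of the 2 members was *Gm10097*/*Syne1* (chr10:5276146-5278285, 2140 bp), which was in both lists. *Syne1* encodes nesprin-1, a protein of the nuclear envelope that links it to the cytoskeleton in muscle, and its start lay 130 bp from that of a numbered gene model. The other was *Matn4*/*Rbpjl* (chr2:164228166-164231625, 3460 bp), where a gene for an extracellular matrix protein and a gene for a relative of the Notch effector RBPJ overlap by 1418 bp, and only H3K4me1 was called lower. Neither mark was called lower at 734 members, which may still have changed.

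Among 22 gene pairs listed as known bidirectional promoters, 11 were members. H3K4me2 was lower at 3 of them, beside 35.9% of all members. *Hspd1*/*Hspe1*, which encode the mitochondrial chaperonin and its co-chaperonin, lay 108 bp apart in a region of 7440 bp (chr1:55140866-55148305). *Brca1*/*Nbr1*, a DNA repair gene and an autophagy receptor gene, lay 270 bp apart in 4960 bp (chr11:101411566-101416525). *Hars*/*Hars2*, the cytoplasmic and mitochondrial histidyl-tRNA synthetases, lay 26 bp apart in 3320 bp.

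The other 8 listed pairs were in neither list. They included *Mcm4*/*Prkdc*, a replicative helicase subunit and the catalytic subunit of DNA-dependent protein kinase, 466 bp apart in 3400 bp. *Psmb9*/*Tap1*, genes of antigen processing, had the narrowest region of the 11 (1900 bp) and starts 38 bp apart. *Atm*/*Npat*, a DNA damage kinase and a regulator of histone gene transcription, lay 307 bp apart in 5400 bp. *Ranbp1*/*Trmt2a*, a regulator of nuclear transport and a tRNA methyltransferase, lay 151 bp apart in 7560 bp, a region wider than that of *Hspd1*/*Hspe1*. Also among the 8 were *Sirt3*/*Psmd13*, *Mrps12*/*Sars2* and *Rpa1*/*Smyd4*, whose bases are shown above.

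**Figure D4:**
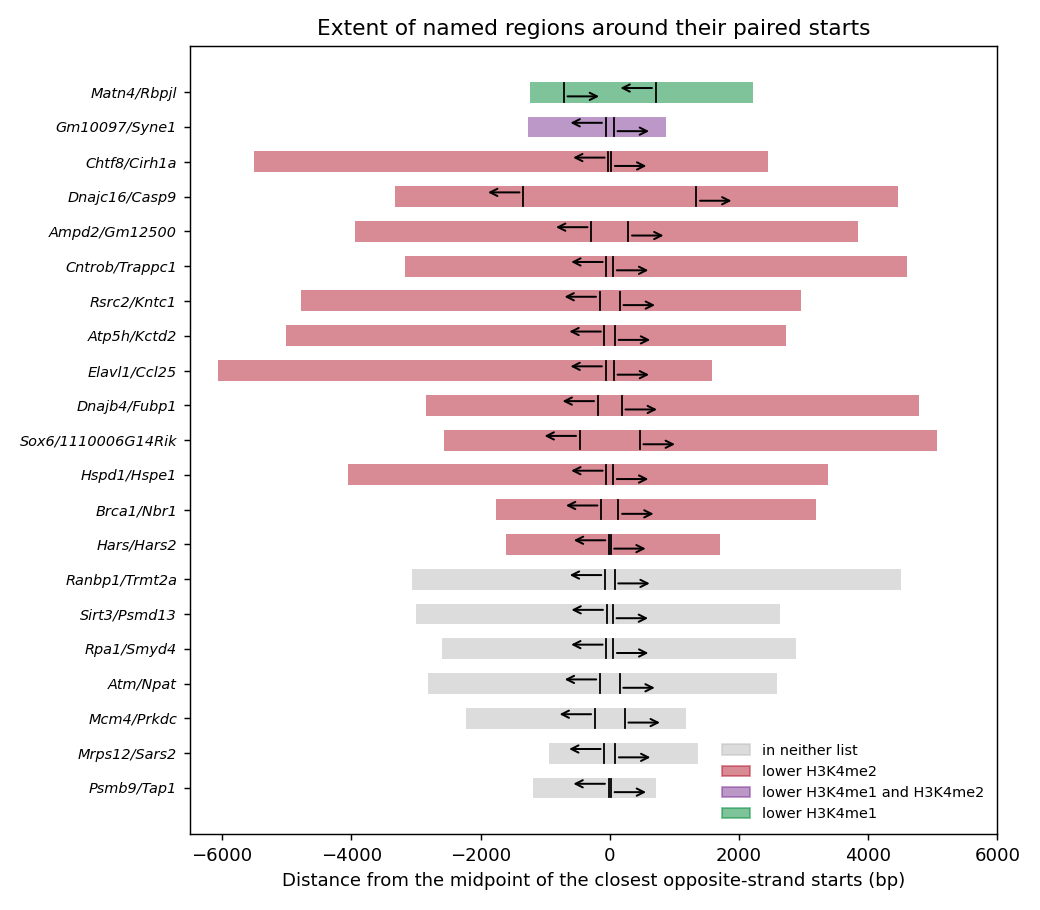
Extent of the merged region (bar) around the midpoint of the closest opposite-strand starts (0 on the horizontal axis, in bp) for 10 of the 11 listed known pairs that were members, 9 of the 10 widest head-to-head members with lower H3K4me2 and the 2 members with lower H3K4me1; ticks mark the starts and arrows of fixed length the direction of transcription. Red bars had lower H3K4me2, the purple bar both marks lower, the green bar lower H3K4me1 and grey bars neither, and the arrows point away from each other in all rows drawn but *Matn4*/*Rbpjl*.

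The widest head-to-head members with lower H3K4me2 joined genes of differing roles. *Chtf8*/*Cirh1a* (chr8:109412006-109419965, 7960 bp) holds genes for a clamp-loader subunit and a factor of ribosomal RNA processing, only 47 bp apart, and the bases between them contained 2 ETS matches. *Dnajc16*/*Casp9* (7780 bp) includes the gene for an initiator caspase, with starts 2681 bp apart. *Cntrob*/*Trappc1* (7760 bp) also held the start of the potassium channel subunit gene *Kcnab3*. *Sox6*/*1110006G14Rik* (7620 bp) holds the gene for a transcription factor expressed in muscle and cartilage.

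Starts only a few bases apart occurred among members called lower and among the others. *Thoc6*/*Hcfc1r1* and *Ndufs1*/*Eef1b2* had starts 3 bp apart and were lower in H3K4me2. *Ndufs1* encodes a core subunit of respiratory complex I and *Eef1b2* a translation elongation factor. *Zfp668*/*Zfp646*, both zinc finger genes, lay 16 bp apart, and *Lig4*/*Abhd13*, of which *Lig4* encodes the ligase of end joining, lay 21 bp apart. In neither list were *Tubgcp2*/*Zfp511* and *Arfrp1*/*Zgpat*, each 1 bp apart, and *Ndufb11*/*Rbm10*, 3 bp apart.

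At the width limits, the narrowest members were *Il17rb*/*Chdh* (1020 bp) and *Smc1b*/*Ribc2* (1040 bp), both in neither list. Just outside lay *Gm5087*/*Synpr* (940 bp), also in neither. The widest members included *Fen1*/*1810006K21Rik*, 7980 bp and lower in H3K4me2, and *Zfp319*/*Tepp*, 7980 bp and in neither. *Psmb1*/*Tbp*, at 8000 bp, fell just outside and was lower in H3K4me2.

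Gene groups were formed by symbol, so a group can hold genes of other roles. Of 77 annotated mitochondrial ribosome genes, 30 (39.0%) had a start at a member, compared with 10.3% of all coding genes. Of their 29 regions, 9 were lower in H3K4me2. The genes at 1-strand promoters gave 34.1%, beside 33.3% of the 30 at members. *Mrpl46*/*Mrps11*, the pair in which both genes belong to the mitochondrial ribosome, was lower in a region of 2720 bp with starts 53 bp apart. *Mitd1*/*Mrpl30* (4520 bp), *Mrpl40*/*Hira* (4040 bp), in which *Hira* encodes a histone chaperone, and *Mrpl50*/*Zfp189* (3820 bp) were lower as well. *Mrpl47*/*Ndufb5* (6300 bp) and *Gga3*/*Mrps7* (5500 bp) were in neither list.

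Genes of the respiratory chain and its assembly were also frequent at members, with 32 of 101 (31.7%). Their regions were lower in H3K4me2 in 14 of 32 cases (43.8%, 28.2 to 60.7), and the corresponding genes at 1-strand promoters in 43.6%. *Sdhd*/*Timm8b* (5480 bp) pairs a membrane anchor of complex II with a subunit of mitochondrial protein import, and *Sdha*/*Ccdc127* (5720 bp) holds the flavoprotein of complex II. Both were lower, as were *Atp5h*/*Kctd2* (7740 bp) and *Uqcrh*/*Lrrc41* (6440 bp), with subunits of ATP synthase and complex III. *Stxbp4*/*Cox11* (4260 bp), with the copper chaperone of cytochrome c oxidase, carried the TCTCGCGAG palindrome between its starts. *Vmac*/*Ndufa11* (7000 bp) was in neither list.

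Genes named as solute carriers or channels were infrequent at members, with 29 of 516 (5.62%), yet 17 of their 29 regions were lower in H3K4me2 (58.6%, 40.7 to 74.5). The share was 15.6% (51 of 327) for those at 1-strand promoters and 36.1% for all coding genes at members. This contrast was not weighted to width or CpG content. The match by symbol also took in *Slc4a1ap*, which was lower, and *Slc7a6os*, in neither list, which are only named after carriers. The 17 included the mitochondrial carrier genes *Slc25a32* (with *Dcaf13*, 3480 bp), *Slc25a40* (with *Dbf4*, a cell cycle kinase activator, 3520 bp) and *Slc25a27* (with *Cyp39a1*, 3600 bp). The zinc transporter genes *Slc30a7* (with *Extl2*, 4540 bp), *Slc39a6* (with *Elp2*, 4160 bp) and *Slc39a11* (with *Cog1*, 4460 bp) were among them, and so was the copper transporter gene *Slc31a1* (with *Fkbp15*, 4080 bp). *Gm10684*/*Scn4b* (4360 bp), which holds the gene for a sodium channel subunit, was in neither list, as was *Kcnab2*/*Nphp4* (3320 bp).

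DNA repair and replication genes had 27 of 99 (27.3%) starts at members, and 11 of 27 regions were lower (40.7%, 24.5 to 59.3, against 37.1% at 1-strand promoters). *Rad51c*/*Tex14*, with a gene of homologous recombination, was lower in a region of only 1840 bp. *Xrcc4*/*Tmem167* (3520 bp), with a cofactor of end joining, and *Tmem111*/*Fancd2* (4240 bp), with a Fanconi anaemia gene, were lower too. *Poll*/*Dpcd* (4020 bp) and *Fancf*/*Gas2* (4500 bp) were in neither list. Of 20 genes with a cell cycle symbol at members, 6 were at regions with lower H3K4me2 (30.0%, 14.5 to 51.9), against 42.5% at 1-strand promoters. Symbols alone placed *Cdk5*, which was lower, and *Cdc42se1*, in neither list, in this group. The 6 included *Ppwd1*/*Cenpk*, with a kinetochore gene, *Cdc45*/*Ufd1l*, with a gene of replication initiation, and *Spef1*/*Cdc25b*, with a phosphatase that activates cyclin-dependent kinases.

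The remaining groups are given by genes, beside 36.1% of all coding genes at members and, for each group, its share at 1-strand promoters. All 3 members with histone genes were lower in H3K4me2, and each joined 2 histone genes: *Hist1h2bh*/*Hist1h3f*, *Hist1h2ac*/*Hist1h2bc* and *Hist1h4c*/*Hist1h1t*. At 1-strand promoters 5 of 9 histone genes (55.6%) were at a lower region. Of 10 cytoplasmic ribosomal protein genes at members, 6 were at a lower region (interval 31.3 to 83.2%, against 33.3%), among them *Rpl15*/*Nkiras1* and *Rps27*/*Rab13*. Ubiquitin pathway genes reached 17.4% (4 of 23) against 42.2%, and proteasome genes 18.2% (2 of 11) against 47.2%. RNA polymerase and exosome genes had the highest presence at members, 17 of 37 (45.9%), and 35.3% of these were at a lower region against 36.8%. The shares were 31.0% against 35.4% for zinc finger genes and 35.9% against 21.6% for *Tmem* genes. They were 30.0% against 17.4% for tRNA synthetase genes and 23.8% against 39.7% for splicing and helicase genes, so that several groups lay near the share of all coding genes at members. The collagen list matched 2 members, of which *Col4a4*/*Col4a3* was in neither list. *Polk*/*Col4a3bp* was lower, but *Col4a3bp* encodes a ceramide transporter and not a collagen.

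**Figure D5:**
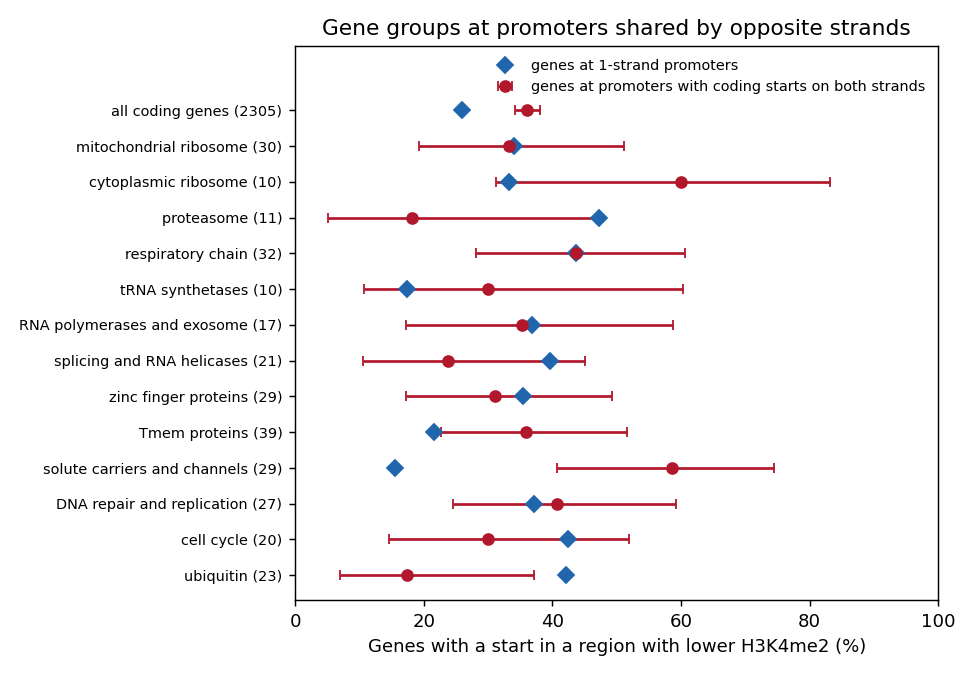
Share of genes with a start in a region called lower in H3K4me2 (horizontal axis, percent) for each group with at least 10 genes at members (number of genes in parentheses), with 95% Wilson intervals for genes at members (red) beside genes at 1-strand promoters (blue). The interval lies above the blue marker for all coding genes, Tmem proteins and solute carriers and channels, and below it for ubiquitin genes.

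Among the motif letters, the ETS match differed most from 1-strand promoters in percentage points. It occurred in 20.2% (17.9 to 22.6) of the 300-base windows centred between the members' closest starts and in 20.5% of the windows at single starts of members, compared with 9.75% at 1-strand promoters and 7.85% at all coding 5′ ends. TATAAA was rarer, at 3.80% of members' start windows, 7.04% at 1-strand promoters and 13.4% at all ends. The SP1 box was found in 66.4%, 59.4% and 43.4%, and CCAAT in 37.9%, 34.1% and 37.9%. NRF1, YY1 and TCTCGCGAG matches were present in 4.28%, 4.32% and 2.01% of members' start windows, compared with 2.66%, 2.46% and 0.853% at 1-strand promoters. Windows of a close pair overlap, so 1 match can count for both starts.

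The presence of a match was set against the H3K4me2 calls by region. Members with an ETS match at either start were lower in 112 of 288 cases (38.9%), and those without in 34.8%. The corresponding values were 54.8% (17 of 31, 37.8 to 70.8) and 35.3% (32.6 to 38.2) for TCTCGCGAG, and 48.3% (29 of 60, 36.2 to 60.7) and 35.2% (32.4 to 38.1) for NRF1. The intervals overlapped in each case. At 1-strand promoters, by the window at 1 start each, they did not. Those with an ETS match were lower in 33.7% (31.0 to 36.5), against 23.0% (22.2 to 23.8) without. The values were 59.0% (49.2 to 68.1) and 23.7% (23.0 to 24.5) for TCTCGCGAG. For NRF1 they were 42.0% (36.6 to 47.5) and 23.6% (22.8 to 24.3). None of these shares was weighted to width or CpG content. Matches were more numerous at 1-strand promoters (1143 for ETS, 100 for TCTCGCGAG and 312 for NRF1), which narrows their intervals. Overlap or its absence therefore does not show that a match went with the calls at 1 kind of promoter only. *Stxbp4*/*Cox11* and *Smc1b*/*Ribc2* both held the TCTCGCGAG palindrome between their starts, and the first, at 4260 bp, was lower whereas the second, at 1040 bp, was in neither list.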

How the data were processed

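H3K4me1, H3K4me2, H3K4me3 and input libraries of E11.5 hearts were sequenced by the authors. Per the labels, peaks were merged over replicates and marks, and the deposited lists give the chromosome, start and end of each region, with no score or count. The submitters' processing notes name CASAVA 1.8.2, FastQC, Bowtie, Bowtie2, SAMtools and mm9. The decreased lists rest on a false discovery rate threshold that the authors set. The peak caller, its settings and the test behind those lists are not given in the sources used here. Depth per library is therefore unknown.

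Starts of protein-coding transcripts of protein-coding genes (GENCODE vM1, NCBIM37) were assigned to merged regions. Every chromosome's last region lay within its NCBIM37 length. A decrease was an identical region in the authors' list. Shares were given with Wilson and differences with Newcombe intervals (95%). For weighting, 1-strand promoters were set to the members' distribution over width classes of 500 bp, or over classes of 1000 bp and CpG ratio. Motifs were searched on both strands in 300 bases. Gene groups were matched by patterns of gene symbols, so a group gene with another symbol was not counted. Named pairs were the listed known pairs, the members with lower H3K4me1, the 10 widest and 10 closest head-to-head members with lower H3K4me2, those at the width limits, and gene group members with lower H3K4me2. Other pairs named as being in neither list were picked, after their values were seen, for contrast. The printed sequences were likewise picked from the named pairs. The members and lists were chosen with earlier results of these data known. The paper shows lower H3K4me2 at *Stradb* and *Gpx1*, which both stand in the list of known pairs. No source is stated for that list. Start assignment was tested on simulated regions with planted pairs. Python 3.11.15, pandas 2.3.3, pysam 0.24.0 and samtools 1.23.1 were used. Alternatives were other start sets, width windows, orientation, overlap in place of identity, covered base pairs and weighting. Some named pairs are not reported here, and the counts include them.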

Additional observations from a re-analysis of the deposited data

How the results depend on the processing

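Of 37 alternatives over 5 results, 31 left the value within its main 95% interval and 0 changed its sign. Results that are shares cannot change sign. Overlap in place of identity could not move a share either, because every decreased region is itself a region of the merged list. The share of members with lower H3K4me2 was 38.8% by covered base pairs, beside 35.9% by number of regions. The H3K4me2 difference from 1-strand promoters, 11.8 points, was 7.14 points with weighting to the members' widths, 7.38 for head-to-head pairs within 1000 bp with the same weighting, and 3.19 with weighting to widths and CpG classes. The last 2 settings, and the restriction to pairs without a numbered gene model or RIKEN clone, were chosen after seeing the data. The H3K4me1 difference was -0.918 points, instead of -0.644, when starts of every transcript of coding genes counted, and -0.276 with weighting to widths and CpG classes. The head-to-head share was 65.6% with outermost 5′ ends. The lists hold no score per region, so a stricter threshold was not run, and leaving out a replicate was not run either. No paired analysis was possible because the lists hold no values per replicate. Because depth is unknown, a member outside a list cannot be read as unchanged, and whether the calls at wide or CpG-rich members differ through read number was not tested.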

Other observations

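Promoters wider than the members were called lower more often. Of 241 regions of 8000 bp or more with coding starts on both strands, 124 had lower H3K4me2 (51.5%, 45.2 to 57.7), and of 8 under 1000 bp 0 did, which allows a share of up to 32.4%. Of the 22 listed known pairs, 9 lay in the wider regions and 5 of these were lower. The paper shows lower H3K4me2 at the start of *Stradb*, a gene in that list. Its pair, *Trak2*/*Stradb*, is counted among the 5, so that call was known beforehand and is not independent of the choice. *Hadha*/*Hadhb* (8580 bp, starts 86 bp apart) encode the subunits of the mitochondrial trifunctional protein of fatty acid oxidation. *Ppat*/*Paics* (11000 bp) encode enzymes of purine synthesis and overlap by 196 bp. *Tk1*/*Afmid* (10820 bp), *Psmb1*/*Tbp* (8000 bp) and *Trak2*/*Stradb* (26480 bp) were lower as well. *Col4a1*/*Col4a2* (16580 bp), the basement membrane collagens, and *Wrap53*/*Trp53* (11720 bp) were in neither list. The listed pair *Acat1*/*Cul5* had no region with coding starts on both strands. The listed pair *Gpx1*/*Rhoa* was not found as such. The region with the *Rhoa* start (9320 bp, lower in H3K4me2) paired it with *Tcta* and is not counted among the 9.

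A non-coding start on the opposite strand was found at 872 of the 1-strand coding promoters. H3K4me2 was lower at 247 of these (28.3%, 25.4 to 31.4) and at 23.7% of the 1-strand promoters without one, a difference of 4.62 points (1.62 to 7.80) that was 1.39 points after weighting to width.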
